A study of Mus musculus with 10 samples.

Results

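In sorted B lymphocyte precursors of mouse bone marrow, 8 genes listed as non-haematopoietic were followed. They were Tmem119, Crhbp, Serpinh1, Myl10, Ppic, Ddn, Lama5 and Tenm4, and they were 8 of the 23420 genes in the count tables. They were chosen by their measured log2 fold change between Mta2 knockout (KO) and control small pre-B cells, from among matrix, neural and muscle-type genes. The KO and control values of small pre-B cells are therefore a description of the choice, with no test. The comparison of KO with control pro-B cells sets other libraries against each other and is the one tested, although the small pre-B libraries enter the same fit and bear on its estimate of the spread. All 8 genes were found in the files and all 8 had enough counts to be among the 14161 genes tested.

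RNA was sequenced from 10 libraries of C57BL/6 bone marrow cells in 4 groups. These were 2 libraries of pro-B cells labelled Mta2_VavKO, 2 of control pro-B cells, 3 of small pre-B cells labelled Mta2_VavKO and 3 of control small pre-B cells. Pro-B cells were sorted as B220+IgM-CD43+, and small pre-B cells as B220+IgM-CD43- with a further gate on size by light scatter. Vav regulatory elements are active across blood cells, so the name of the KO gives no restriction to the B lineage. The labels used here give no age, sex, Cre allele or genotype of the controls beyond the word control, and they do not say whether replicates are separate animals, so p-values measure the spread between libraries.

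Mta2 belongs to NuRD, a complex of the nucleus that shifts nucleosomes and takes acetyl groups off histones. Pro-B cells rearrange the immunoglobulin heavy chain genes, and small pre-B cells are the later, resting stage at which light chain genes are rearranged. Serpinh1 (also called Hsp47) is the collagen chaperone of the endoplasmic reticulum, Ppic is a cyclophilin, an enzyme that turns peptide bonds at proline, and Lama5 is the laminin alpha 5 chain of basement membranes. Crhbp binds and holds corticotropin-releasing hormone, Ddn (dendrin) is a protein of postsynaptic sites and kidney podocytes, and Tenm4 is a teneurin, a transmembrane protein that binds latrophilin receptors. Tmem119 is a membrane protein used as a marker of microglia and known also from osteoblasts. Myl10 is a regulatory myosin light chain that was first described in precursor lymphocytes.

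In mm10 coordinates, as the files give them, Serpinh1 lies at chr7:99345375-99353239 on the minus strand with 6 exons, Ppic at chr18:53406341-53418007 on the minus strand with 5 and Lama5 at chr2:180176373-180225859 on the minus strand with 79. Crhbp lies at chr13:95431376-95444831 on the minus strand with 7 exons, Ddn at chr15:98803782-98807925 on the minus strand with 2 and Tenm4 at chr7:96210637-96908554 on the plus strand with 33. Tmem119 lies at chr5:113793729-113800352 on the minus strand with 2 exons and Myl10 at chr5:136693146-136701094 on the plus strand with 6. Counts are sums over all exons of a gene and were made without using the strand. Ddn shares 177 exon bases with the antisense gene B130046B21Rik and Tenm4 shares 988 with C230038L03Rik on the opposite strand (GENCODE annotation), so reads from those pairs cannot be told apart. The other 6 genes share no exon base with another annotated gene.

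Total counts lay between 17805507 and 52127004 per library. The floor used here, 3 counts, corresponded to 0.0576 CPM (counts per 1e6 counts) in the deepest library and 0.168 CPM in the shallowest. Both floor values are unscaled, and all other CPM levels are scaled between libraries. The Mta2 level was 163 and 166 CPM in pro-B KO libraries against 436 and 375 CPM in pro-B controls, and it lay between 179 and 199 CPM in the KO libraries of small pre-B cells against 246.5 to 438 CPM in their controls. Small pre-B control 3 stood apart, with 0.953% of its counts in histone genes and 1.401% in the nuclear RNA Malat1, where no other library exceeded 0.0399% and 0.290%. KO libraries 1 and 2 of small pre-B cells held 2518 and 2942 CPM of Xist, which coats the inactive X, and no other library held more than 31.4 CPM. The sum of Y-linked genes came to 8.13 and 0.0790 CPM in these 2 libraries, 571 CPM in KO library 3 and 498 to 674 CPM in the small pre-B controls. Sex-linked RNA thus differed between small pre-B KO and control groups, and its part in the small pre-B differences was not tested. The B lineage genes Ebf1 and Pax5 were detected in every library. In the pro-B gate Siglech, a receptor of microglia and of plasmacytoid dendritic cells, reached 1744 and 1893 CPM in the KO libraries against 1571 and 1672 CPM in the controls, and lay between 0.839 and 13.7 CPM in all small pre-B libraries. RNA of a marker of other cell types was thus measured in the pro-B gate, and the part of such cells in the levels of the 8 genes was not tested.

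In small pre-B cells all 8 genes had every KO library above every control library, a separation that 13.3% of all tested genes showed. The summed level of the 8 genes was 70.3, 68.2 and 37.9 CPM in KO libraries 1 to 3, against 3.18, 5.48 and 1.68 CPM in controls 1 to 3. In the order of log2 fold change over all 14161 genes, 7 of the 8 stood at places 23, 33, 60, 66, 74, 75 and 82. Tenm4 stood at place 566 (log2 fold change 1.79), which goes against its listing among the largest changes. The 7 were also among the 267 genes called higher in this contrast by the edgeR quasi-likelihood test, 1.89% of those tested, and Tenm4 was not. Nothing is read from these counts, since the same contrast chose the genes. Lama5, the last of the 7, had a log2 fold change of 3.86, and Slc45a3, the next called gene in the order, had 3.79. In bulk samples more cells of a type and more RNA per cell cannot be told apart.

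Among the genes of matrix and protein folding, Serpinh1 was at 11.5, 4.66 and 5.175 CPM in KO libraries 1 to 3 of small pre-B cells, against 1.003, 0.322 and 0.0284 CPM in controls 1 to 3. For this gene the lowest KO library was 4.65 times the highest control, and the fitted log2 fold change was 4.21 (SE 0.70). Control 3 held a single Serpinh1 read, and the SD was 3.80 CPM in the KO group and 0.500 CPM in the control group. Ppic was at 8.02, 4.74 and 2.33 CPM in the KO libraries, against 0.446, 0.483 and 0.114 CPM in controls (log2 fold change 3.91, SE 0.61). KO library 3 was the lowest of the KO group for this gene and was still 4.82 times the highest control. Lama5 was at 8.31, 8.38 and 12.1 CPM in the KO libraries, against 0.279, 0.806 and 0.824 CPM in controls (log2 fold change 3.86, SE 0.465). It was the most even of the 8 genes within the KO group, with the highest library at 1.45 times the lowest, and control 3 was its highest control.

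Among the genes known from the nervous system, Tmem119 was at 7.44, 3.48 and 3.45 CPM in the small pre-B KO libraries, against 0.1115, 0.201 and 0.0568 CPM in controls. Its KO group was separated furthest from its controls, with the lowest KO library at 17.1 times the highest control and a log2 fold change of 5.30 (SE 0.48). The counts behind this were 291 reads in KO and 9 in controls. Crhbp was at 12.98, 16.75 and 6.06 CPM in the KO libraries, against 0, 1.21 and 0.0568 CPM in controls (log2 fold change 4.80, SE 0.98). Control 2 held 30 of the 32 control reads, and without that library the log2 fold change was 8.20, so a single control sets the size of this difference. Ddn was at 0.519, 0.909 and 1.54 CPM in the KO libraries, against 0, 0.121 and 0.0568 CPM in controls (log2 fold change 3.90, SE 0.60). It rested on few reads, with 65 in KO and 5 in controls. Tenm4 was at 1.44, 1.30 and 0.466 CPM in the KO libraries, against 0.334, 0.242 and 0.341 CPM in controls, where the lowest KO library was 1.37 times the highest control.

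Myl10, listed as muscle-type although first described in precursor lymphocytes, had the highest level per length of the 8 in small pre-B KO cells. It was at 20.1, 27.9 and 6.76 CPM in KO libraries 1 to 3, against 1.003, 2.095 and 0.199 CPM in controls 1 to 3 (log2 fold change 4.09, SE 0.75). It was also the most uneven within the KO group, with library 2 at 4.13 times library 3. Across the 8 genes, KO library 3 was the lowest KO library for 5 and the highest for 2, Ddn and Lama5. That library held 7.93 CPM of Xist, within the range of the small pre-B controls, 1.69 to 31.4 CPM. The part of sex-linked RNA in these levels was not tested. Control 3, the library that stood apart, was the lowest control for 4 genes. The median log2 fold change of the 8 was 3.999, against 0.006 over all tested genes, and it was 3.65 without control 3, 3.98 without KO library 1 and 3.96 without KO library 2.

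**Figure D1:**
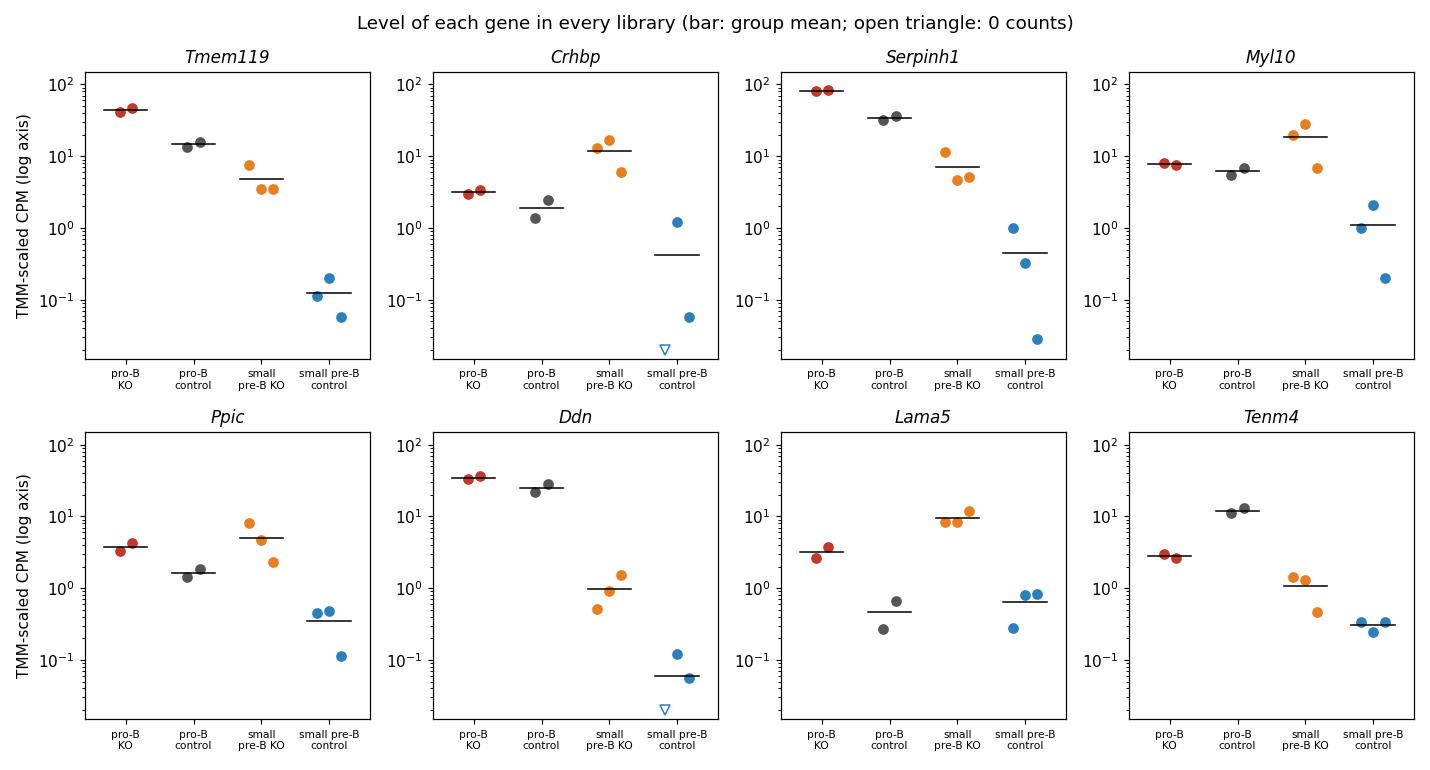
Level of each of the 8 genes in every library, in TMM-scaled CPM on a log axis, with pro-B KO, pro-B control, small pre-B KO and small pre-B control from left to right. Each point is a library, each bar is a group mean and open triangles are libraries with 0 counts. In all 8 panels the 3 small pre-B KO points lie above the 3 small pre-B control points, and in the Tenm4 panel alone the pro-B KO points lie below the pro-B controls.

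In pro-B cells, the comparison that did not choose the genes, 7 of the 8 had both KO libraries above both controls, and Tenm4 had both below. Both KO libraries lay above both controls for 27.4% of all tested genes and below both for 28.1%. No gene of the 8 passed the edgeR quasi-likelihood test at an adjusted p below 0.05, where 5 of 14161 genes did (0.0353%), and 3 of the 8 had an unadjusted p below 0.05, as had 6.45% of all tested genes. Their median log2 fold change was 0.97, against -0.006 over all tested genes, with a range of -2.085 to 2.75.

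In pro-B cells Lama5 had the largest difference of the 8. Its level was 2.60 and 3.75 CPM in pro-B KO libraries, against 0.2675 and 0.666 CPM in pro-B controls, a log2 fold change of 2.75 (SE 0.54, adjusted p = 0.254, edgeR). The lower KO library was 3.91 times the higher control. Tmem119 was at 40.9 and 47.4 CPM in KO libraries, against 13.3 and 15.9 CPM in controls, a log2 fold change of 1.60 (SE 0.38, adjusted p = 0.348, edgeR). Its separation between groups, at 2.575 times from the lower KO library to the higher control, was wider than the differences within either group. Tenm4 went the other way, with 3.02 and 2.66 CPM in KO libraries against 11.08 and 13.03 CPM in controls, a log2 fold change of -2.085 (SE 0.43, adjusted p = 0.254, edgeR).

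Serpinh1 and Ppic were also higher in both pro-B KO libraries, without passing the test. Serpinh1 was at 81.3 and 83.55 CPM in KO libraries, against 31.7 and 36.5 CPM in controls (log2 fold change 1.27, SE 0.62, adjusted p = 0.86, edgeR). Ppic was at 3.29 and 4.32 CPM in KO libraries, against 1.43 and 1.87 CPM in controls (log2 fold change 1.20, SE 0.61, adjusted p = 0.9, edgeR). The remaining 3 genes lay closer together. Crhbp was at 2.93 and 3.43 CPM in KO libraries, against 1.38 and 2.43 CPM in controls (log2 fold change 0.74, SE 0.98). Ddn was at 33.1 and 36.3 CPM in KO libraries, against 21.8 and 28.6 CPM in controls (0.46, SE 0.39). Myl10 was at 8.15 and 7.50 CPM in KO libraries, against 5.445 and 6.89 CPM in controls (0.34, SE 0.77). Each of these 3 had an adjusted p of 1 (edgeR), and their SE was nearly as large as the difference or larger.

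The pro-B calls depended on the tool. DESeq2 called 3 of the 8, Tmem119 and Lama5 as higher and Tenm4 as lower, with adjusted p of 0.00822, 6.8e-05 and 0.000206, where it called 1.32% of the genes it gave an adjusted p. Limma-voom called 4, the same 3 and Serpinh1 (adjusted p = 0.0467), against 1.05% of all genes. A fit of the 4 pro-B libraries alone called 5, these 4 and Ppic (adjusted p = 0.0449, edgeR), against 6.09% of all genes. The direction of each of the 8 genes was the same in all 19 alternative fits, while 16 of those fits called none of them. Without small pre-B control 3, the library that stood apart, the adjusted p was 0.0817 for Lama5, 0.0827 for Tenm4 and 0.1 for Tmem119 (edgeR).

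**Figure D2:**
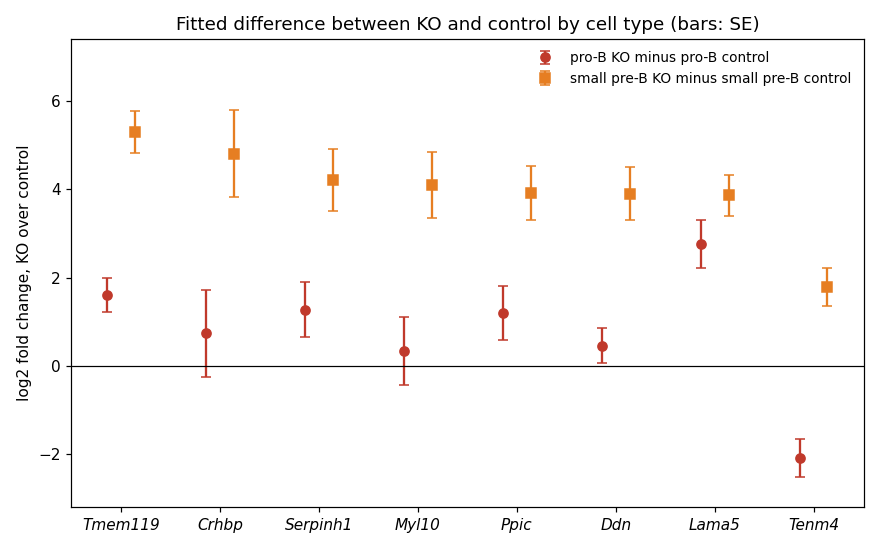
Fitted log2 fold change of KO over control for each gene, with circles for pro-B cells, squares for small pre-B cells and bars for the SE (edgeR). The small pre-B values, which chose the genes, lie between 1.79 and 5.30, and the pro-B values lie between -2.085 and 2.75 with Tenm4 below 0.

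The genes were listed under the name non-haematopoietic, and their RNA was measured in these sorts of marrow cells. Which cells of a sort held it was not tested. Markers of stroma and of neurons and glia were uneven in the pro-B controls. Pdgfrb and Tubb3 had 340 and 217 reads there, while Dcn, Lum, Syt1, Gad1 and Olig2 had 0. All 8 genes had reads in both pro-B control libraries, between 14 for Lama5 in control 1 and 2028 for Serpinh1 in control 2. Set against pro-B controls, small pre-B controls held 0.235% of the Ddn level, 0.845% for Tmem119, 1.32% for Serpinh1 and 2.54% for Tenm4. They held 17.8% for Myl10, 21.0% for Ppic and 22.2% for Crhbp, while Lama5 was at 136% of a low pro-B level. In those control cells 7 of the 8 genes were thus lower at the small pre-B stage without overlap between libraries, as were 38.9% of all tested genes, and Lama5 overlapped. The median log2 difference of small pre-B minus pro-B controls was -3.90, against -0.023 over all tested genes, and it was -5.34 without small pre-B control 2, given without a test since small pre-B libraries chose the genes.

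Relative to the pro-B controls, the level reached in small pre-B KO cells divided the genes. For Tmem119 it was 32.8% of the mean of pro-B controls, for Serpinh1 20.8%, for Tenm4 8.88% and for Ddn 3.92%. These 4 genes had their 2 highest group means in pro-B cells, and their small pre-B KO libraries did not overlap either pro-B group. For the other 4 the mean of small pre-B KO was the highest of the 4 groups, at 296% of pro-B controls for Myl10, 304.5% for Ppic, 627% for Crhbp and 2054% for Lama5. Crhbp and Lama5 were above all pro-B libraries in each small pre-B KO library. The share of all tested genes with these separations was not computed, so nothing is read from them. Between the controls of the 2 stages, 38.9% of all tested genes were lower in small pre-B cells without overlap. Small pre-B KO overlapped pro-B KO and pro-B control libraries for Myl10, and overlapped pro-B KO libraries for Ppic. For Myl10 it was KO library 3, at 6.76 CPM, that lay within the pro-B range.

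**Figure D3:**
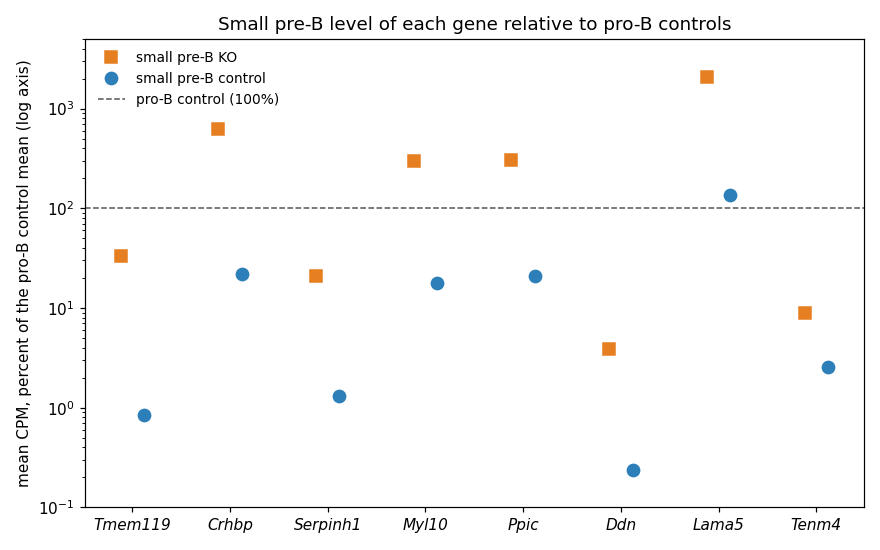
Mean CPM in small pre-B KO (squares) and small pre-B control cells (circles) as a percent of the pro-B control mean, on a log axis, with a dashed line at 100%. Crhbp, Myl10, Ppic and Lama5 have their KO square above the line, and Lama5 alone has its control circle above it.

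Levels were set between genes only per length, as mean CPM per kilobase of exon. In small pre-B KO cells the order was Myl10 at 20.75, Crhbp at 7.10, Ppic at 3.91, Serpinh1 at 2.91 and Tmem119 at 2.305, followed by Lama5 at 0.842, Ddn at 0.264 and Tenm4 at 0.101 CPM per kilobase. In pro-B controls the order was Serpinh1 at 13.95, Tmem119 at 7.02, Myl10 at 7.01, Ddn at 6.74, Ppic at 1.285, Tenm4 at 1.13, Crhbp at 1.13 and Lama5 at 0.0410 CPM per kilobase. Myl10 and the collagen chaperone Serpinh1 thus led in different sorts. Lama5 was the lowest per length in pro-B controls and Tenm4 in small pre-B KO cells.

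Over the 10 libraries the 8 genes fell into patterns that were partly alike. All r values are a description, because the libraries share cell type and genotype. The small pre-B libraries among them also chose the 8 genes, which bears on every r with their mean profile. Tmem119 had a Pearson r of 0.972 with Serpinh1 and 0.931 with Ddn on the log2 CPM scale. Myl10 had an r of 0.959 with Ppic and 0.924 with Crhbp. Lama5 and Tenm4 were the least alike, with an r of -0.146. The genes outside the group whose log2 CPM was most like the mean profile of the 8 were Smad1, a transcription factor of bone morphogenetic protein signalling (r = 0.979), Cd3e, a signalling chain of T cell receptors (0.977), Sestd1 (0.975) and the small GTPase gene Rras2 (0.972). Aldh7a1 and Chst11 were at 0.97, Fpgs at 0.969, and Cul7, Itpk1 and Cul9 at 0.968. Among the 8 themselves r with that profile, which includes the gene itself, lay between 0.551 for Lama5 and 0.953 for Tmem119. Mean Cd3e levels were 17.4 CPM in pro-B KO and 8.24 CPM in pro-B control cells, and 10.03 CPM in small pre-B KO and 0.252 CPM in small pre-B control cells.

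Most tested genes of the same pathways, other than the 8, did not pass in small pre-B cells, although some did. The lists of pathway genes were set with earlier results of these data known and are given as counts, beside 1.89% of all genes called higher and 1.14% called lower in small pre-B cells. In pro-B cells 0 genes of any of these lists passed the edgeR quasi-likelihood test, where 0.0353% of all genes did. Of 17 tested genes of laminins and basement membranes, 4 rose and 0 fell in small pre-B KO. Hspg2, the heparan sulphate proteoglycan perlecan, was at 8.70 ± 3.75 CPM in KO and 0.684 ± 0.455 CPM in controls (SD, n = 3 each; log2 fold change 3.66, adjusted p = 0.0254, edgeR). The laminin receptor genes Itga3, an integrin, and Dag1, dystroglycan, had log2 fold changes of 1.31 and 0.83, and the laminin chain Lamb2 had 1.305 (adjusted p = 0.0254, 0.0303 and 0.0492, edgeR). The list had a median of 0.48, against 0.006 over all genes.

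The collagen folding and secretion list, the partners of Serpinh1, had 2 of 12 tested genes called higher and 0 called lower. It summed to between 495 and 521 CPM in small pre-B KO and between 451 and 486 CPM in controls, without overlap. Plod1, a collagen lysyl hydroxylase, was at 4.51 ± 0.465 CPM in KO and 2.32 ± 0.282 CPM in controls, and the procollagen protease Bmp1 was at 8.91 ± 1.42 CPM in KO and 4.08 ± 0.177 CPM in controls (SD, n = 3 each; adjusted p = 0.0313 and 0.0414, edgeR). Of 15 tested cyclophilins none passed, and the nearest was Ppia at a log2 fold change of 0.30 (adjusted p = 0.111, edgeR), far under the 3.91 of Ppic. Of 13 tested genes of myosin light chains, their kinases and nonmuscle heavy chains, 1 passed, the heavy chain gene Myh10, at 50.2 ± 30.5 CPM in KO and 8.12 ± 2.58 CPM in controls (log2 fold change 2.62, adjusted p = 0.035, edgeR).

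The neural partners were counted in the same way. Of 4 tested teneurin, latrophilin and Flrt genes, the latrophilin gene Lphn2 rose. It was at 49.4 ± 13.6 CPM in KO and 15.01 ± 4.24 CPM in controls (SD, n = 3 each, adjusted p = 0.0254, edgeR). The list summed to between 68.9 and 104 CPM in small pre-B KO and between 27.0 and 57.5 CPM in controls, without overlap. Sums of the pathway lists other than this one and collagen folding overlapped between small pre-B KO and control libraries. Of 10 tested partners of dendrin, the postsynaptic scaffold gene Dlg4 rose (log2 fold change 2.05, adjusted p = 0.0267) and the postsynaptic scaffold gene Homer1 fell (-1.26, adjusted p = 0.0486, edgeR). In the corticotropin-releasing hormone system 3 genes were tested and none passed, and Crh, the hormone that Crhbp binds, had 0 counts in all 10 libraries, as had its receptor genes Crhr1 and Crhr2. Of 9 tested osteoblast genes none passed in small pre-B cells, where their median was -0.305, and the nearest was Spp1 (0.88, adjusted p = 0.193, edgeR).

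Markers of the tissues for which the 8 genes are known were not higher in small pre-B KO cells by their sums, which overlapped the controls or lay below them. The 12 markers of mesenchymal stroma summed to between 1.10 and 1.42 CPM in KO libraries and between 0.398 and 2.40 CPM in controls, with Col3a1 and Lum at 0 counts. The 12 markers of neurons and glia summed to between 29.6 and 53.2 CPM in KO and between 49.8 and 62.9 CPM in controls, with Syt1, Snap25, Olig2 and Sox10 at 0. The 14 muscle markers summed to between 12.1 and 12.4 CPM in KO and between 12.8 and 32.6 CPM in controls, with Myh1, Myh2, Myh4, Des, Myod1 and Myog at 0. The microglia and macrophage list summed to between 54.3 and 80.3 CPM in KO and between 85.4 and 89.2 CPM in controls. In none of these 4 lists did any gene rise past the test, and Map2, a neuronal microtubule protein, fell (log2 fold change -3.67, adjusted p = 0.0254, edgeR).

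Higher sums in small pre-B KO were measured for markers of other lymphoid and of early cells. T cell markers summed to 65.3, 101 and 60.2 CPM in KO libraries 1 to 3, against 20.2, 20.2 and 7.61 CPM in controls 1 to 3, and 6 of 12 passed as higher. Markers of stem cells and early progenitors summed to between 45.1 and 90.6 CPM in KO and between 16.9 and 31.3 CPM in controls. Kit was the 1 of 8 tested to pass, as higher, and made up most of each KO sum. It was at 81.9, 50.9 and 36.3 CPM in KO libraries 1 to 3, against 14.9, 10.9 and 3.64 CPM in controls 1 to 3. Of the 8 tested, 5 had a log2 fold change above 0 and 2 below. The 2 were Meis1 at -0.89 and Hoxa9 at -0.93, and neither passed. The pro-B and large pre-B list, which also holds Kit, summed to between 3255 and 4244 CPM in KO and between 2991 and 3270 CPM in controls, with Kit the 1 of 12 to pass and a median log2 fold change of 1.28. Myeloid markers summed to between 209.9 and 432 CPM in KO and between 117 and 316 CPM in controls, with 12 of 12 higher and 1, Ly6c2, past the test. Natural killer markers summed to between 97.6 and 181 CPM in KO and between 10.8 and 131 CPM in controls, and none of 9 passed. The sums overlapped between KO and control libraries for the pro-B and large pre-B, myeloid and natural killer lists and did not for the other 2 lists. The part of such cells in the levels of the 8 genes was not tested.

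In pro-B cells the stroma markers summed to 10.1 and 54.1 CPM in KO libraries, against 5.41 and 5.85 CPM in controls. The collagen gene Col1a1 was at 0.637 CPM in KO library 1 and at 20.45 CPM in KO library 2, where Serpinh1 was at 81.3 and 83.55 CPM. Myeloid markers summed to 13140 and 19110 CPM in pro-B KO libraries, against 8038 and 8234 CPM in controls, with 12 of 12 higher and 0 past the test. KO sums also lay above control sums for T cell markers (505 to 547 CPM in KO, 378 to 448 CPM in controls) and for endothelial markers (479.5 to 547.5 CPM in KO, 388 to 398 CPM in controls). The same held for stem and early progenitor markers (407 to 565 CPM in KO, 315 to 386 CPM in controls). The microglia and macrophage list, the one of the tissue in which Tmem119 is a marker, summed to 1919 and 2124 CPM in KO and to 1716 and 1857 CPM in controls, in large part Siglech. No gene of any marker list passed in pro-B cells, and the part of such cells in the pro-B differences was not tested.

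**Figure D4:**
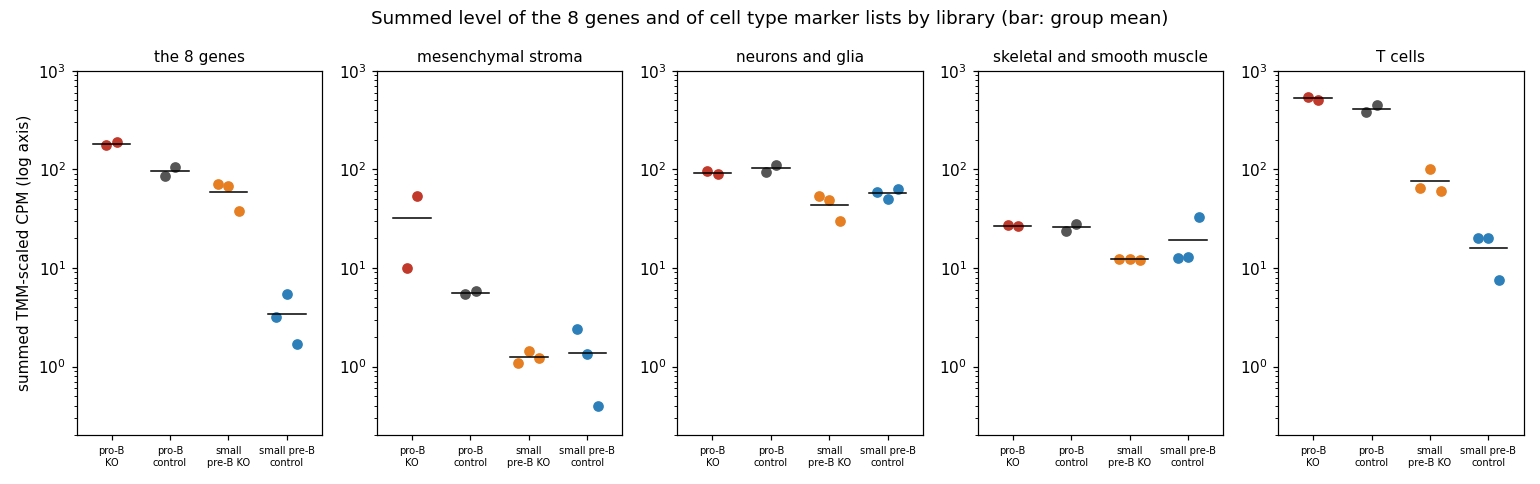
Summed level of the 8 genes and of 4 lists of cell type markers in every library, in TMM-scaled CPM on a log axis, with group means as bars. Small pre-B KO lies above small pre-B control without overlap for the 8 genes and for T cell markers, and does not for stroma, for neurons and glia or for muscle.

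Of the 16 nearest tested neighbours 0 passed in pro-B cells and 1 in small pre-B cells (edgeR), with median log2 fold changes of 0.05 and 0.15 and ranges of -3.006 to 1.57 and -2.27 to 3.86. The one that passed was Gdpd5, a phosphodiesterase gene beside Serpinh1 (log2 fold change 1.655, adjusted p = 0.0259, edgeR). Map6, on the other side of Serpinh1, and Snx24, beside Ppic, had small pre-B log2 fold changes of 3.86 and 3.52 that did not pass (adjusted p = 0.216 and 0.125, edgeR). F2rl1 beside Crhbp was at 2.46, Wnt10b beside Ddn at 1.55 and Gm19466 beside Ppic at -2.27, and none of these passed (adjusted p = 0.0645, 0.111 and 0.276, edgeR). Adrm1, which lies 90 bases from Lama5, was at 0.10 on the log2 scale (adjusted p = 0.589, edgeR).

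The 250 bases before the start site are shown for the 4 genes whose start in the files matched a RefSeq promoter window (GRCm38.p6). These were Crhbp, Serpinh1, Myl10 and Lama5. The listed genes were chosen by their change in small pre-B cells, so being higher together there is no reason to expect shared letters. Each window reads 5′ to 3′ on the gene's strand and ends at the base before the start site. Capitals mark matches, on either strand, to 5 motifs that a search looked for: the octamer ATGCAAAT, the EBF core CCCNNGGG, the E2A E-box CAGGTG, the TATA box TATAAA and the GC box GGGCGG. The windows are at chr13:95444832-95445081 on the minus strand for Crhbp, chr7:99353240-99353489 on the minus strand for Serpinh1, chr5:136692896-136693145 on the plus strand for Myl10 and chr2:180225860-180226109 on the minus strand for Lama5.
Crhbp: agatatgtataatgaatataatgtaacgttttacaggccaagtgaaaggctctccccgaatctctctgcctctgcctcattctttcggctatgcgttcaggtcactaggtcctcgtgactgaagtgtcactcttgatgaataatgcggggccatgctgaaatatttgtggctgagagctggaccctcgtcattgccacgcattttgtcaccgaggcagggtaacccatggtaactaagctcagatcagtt
Serpinh1: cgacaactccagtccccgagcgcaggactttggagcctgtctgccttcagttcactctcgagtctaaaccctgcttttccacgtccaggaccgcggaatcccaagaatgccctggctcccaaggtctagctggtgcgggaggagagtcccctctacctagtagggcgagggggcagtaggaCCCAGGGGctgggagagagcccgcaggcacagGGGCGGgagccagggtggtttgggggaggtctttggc
Myl10: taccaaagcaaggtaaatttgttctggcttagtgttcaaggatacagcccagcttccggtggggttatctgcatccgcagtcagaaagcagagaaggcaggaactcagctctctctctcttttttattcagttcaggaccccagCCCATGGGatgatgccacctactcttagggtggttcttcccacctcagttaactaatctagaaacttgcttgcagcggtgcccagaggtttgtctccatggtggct
Lama5: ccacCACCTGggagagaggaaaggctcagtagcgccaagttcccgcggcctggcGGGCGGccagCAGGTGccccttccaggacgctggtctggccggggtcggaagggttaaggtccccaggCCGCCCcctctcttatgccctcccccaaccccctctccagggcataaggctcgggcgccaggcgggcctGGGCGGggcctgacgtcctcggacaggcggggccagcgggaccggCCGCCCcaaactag

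The 4 windows had little in common by these letters. Crhbp held none of the 5 motifs. Serpinh1 held an EBF core from -69 to -62 and a GC box from -37 to -32, counted from the start site, and Myl10 held an EBF core from -106 to -99. Lama5 held 2 E-boxes and 4 GC boxes. Among 32841 promoters of the same length, 11.8% held the EBF core, 17.2% the E-box, 32.7% the GC box, 12.4% the TATA box and 1.6% the octamer. G and C made up 47.2% of the Crhbp window, 49.6% of Myl10, 63.6% of Serpinh1 and 72.4% of Lama5, around a median of 52.4% over all promoters. The ratio of observed to expected CpG was 0.646 for Crhbp, 0.58 for Lama5, 0.439 for Serpinh1 and 0.195 for Myl10, around a median of 0.374. The 4 genes thus lay on both sides of the median in each measure.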

How the data were processed

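Each deposited file gives the raw counts of 1 library by gene, which the authors made with featureCounts 1.4.3-p1 over exons of an mm10 annotation with no strand option, per the file headers. The kit keeps the strand, per the labels. Per the submitters' processing notes, CASAVA 1.82 and STAR were used with mm9. Coordinates are mm10. For small pre-B control 3 the file header has the number 919 and the title 931.

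Genes were filtered with filterByExpr (minimum count 10, minimum total 15), scaled by TMM and fitted with edgeR 4.0.16 (R 4.3.3), robust quasi-likelihood, 1 mean for each of the 4 groups over all 10 libraries. Benjamini-Hochberg adjustment ran over all 14161 genes, with a threshold of 0.05. The SE is the log2 fold change over the root of F. Levels are TMM-scaled CPM, and fold changes were fitted with a prior count of 0.125. The floor of 3 counts covers counting error only. Scripts were tested on simulated data.

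The members, lists and motifs were chosen with earlier results of these data known. Named genes are the 8, list genes past the threshold (else those with the smallest p), nearest neighbours, and the 10 most alike by Pearson r among genes of at least 2 CPM in a group (log2 CPM with a prior count of 2). Marker lists also covered endothelium, erythroid and plasma cells. The alternatives were DESeq2 1.42.0, limma-voom (limma 3.58.1), 2 other scalings, 2 other filters, another prior count, the compared groups alone, the title number as a block, and leaving out each library.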

Additional observations from a re-analysis of the deposited data

Results flagged for a closer look

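Tenm4 went opposite ways at the 2 stages. Its log2 fold change of KO over control was 1.79 in small pre-B cells, where each KO library lay above each control, and -2.085 in pro-B cells, where each KO library lay below each control. The KO effect in small pre-B minus that in pro-B cells was 3.87 on the log2 scale. That difference was not tested, because the small pre-B contrast chose the gene. Groups of 2 and 3 libraries are too small for a check for single libraries that stand apart in a gene.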

How the results depend on the processing

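Of the 8 genes, 0 passed in pro-B cells in the edgeR fit of all libraries and in 16 of 19 alternatives, and 3 passed with DESeq2, 4 with limma-voom and 5 in the fit of the compared groups alone. With a replicate block made from the numbers in the titles, 0 of the 8 genes and 0 of all genes passed, and the small pre-B median was 4.12. Deviations of same-numbered libraries from their group means correlated at 0.015 in pro-B cells and at 0.102, 0.155 and 0.045 in small pre-B cells. Each small pre-B library correlated best with its own number. With groups of 2 and 3 libraries, deviations from group means cannot show whether the numbers pair the libraries. The main fit did not pair them. Leaving out a library in turn, the median log2 fold change of the 8 in small pre-B cells lay between 3.65 and 4.48, and the median stage difference in controls between -5.34 and -3.67, the first of these without small pre-B control 2. The stage difference of Lama5 in controls was 0.49 and lay between -0.031 and 1.27, the first without pro-B control 1. The stage difference of Ppic in KO cells was 0.40 and lay between -0.10 and 0.74, the first without small pre-B KO library 1. Where a group was left with 1 library, it was assumed to vary like the others. Low counts limit Ddn and Tmem119 most, with 5 and 9 reads over the 3 small pre-B controls.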

Other observations

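Lists not described above had the following values. Endothelial markers summed to between 289.7 and 324.5 CPM in small pre-B KO and between 319 and 418 CPM in small pre-B controls. Of 9 tested, 5 were higher and 4 lower, with a median log2 fold change of 1.16. Pecam1 was the 1 that passed, as lower, at a mean of 228 CPM in KO and 340 CPM in controls. Eng was at 61.5 CPM in KO and 18.9 CPM in controls and did not pass (adjusted p = 0.109, edgeR). Erythroid and megakaryocyte markers summed to between 3.12 and 15.5 CPM in small pre-B KO and between 3.46 and 16.8 CPM in controls. Plasma cell markers summed to between 1240.0 and 1468 CPM in small pre-B KO and between 1391 and 2249 CPM in controls, with Xbp1, a transcription factor of secretory cells, the 1 of 6 to rise (adjusted p = 0.0407, edgeR).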
